A study of Arabidopsis thaliana with 111 samples.

Results

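Transcripts of 9 seed storage protein genes were followed through germination of Arabidopsis thaliana, accession Columbia-0, in a table of 21313 loci. The genes were chosen by locus identifier: 3 cruciferins (CRA1, AT5G44120; CRU2, AT1G03880; CRU3, AT4G28520), 5 seed storage albumins (SESA1, AT4G27140; SESA2, AT4G27150; SESA3, AT4G27160; SESA4, AT4G27170; SESA5, AT5G54740) and the vicilin-like globulin PAP85 (AT3G22640). All 9 were in the table, each once. Seeds were set on 0.7% agarose at 22 °C under continuous light and dissected. The samples were the endosperm of the micropylar and chalazal ends (MCE), the remaining endosperm (PE), the radicle with the embryo axis (RAD) and the cotyledons (COT), and dry seeds were measured whole. The 111 arrays formed 28 groups of 4, with 3 arrays for PE at 3 h.

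MCE and RAD were each sampled at 1, 3, 7, 12, 16, 20, 25, 31 and 38 h. At 25 h seeds were separated into those with and without testa rupture (a split outer seed coat), and at 38 h into those with and without endosperm rupture, when the radicle breaks through. COT was sampled at 3, 16 and 31 h, and PE at 3 and 16 h. All seeds were of the same accession, the labels name no mutation and no added agent, and each array was prepared from 100 ng of RNA.

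Cruciferins are legumin-type globulins and, with the small, cysteine-rich albumins, make up most of the protein of an Arabidopsis seed. They are made while the seed matures, under the control of the transcription factors ABI3, FUS3 and LEC2 and of partner bZIP factors, and are cut by vacuolar processing enzymes in the storage vacuoles. After imbibition the proteins are broken down as a source of amino acids. In the gene order of the TAIR10.1 assembly SESA1, SESA2, SESA3 and SESA4 follow one another directly. These albumins are related in sequence and the sources used here do not give the probe definition, so signal shared among them is possible and was not tested.

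Levels are log2 expression values, and differences are log2 differences ± standard error from limma. "Fell" and "lower" (or "rose" and "higher") are used for an adjusted p under 0.05 with a log2 difference of at least 1 in size. The brightest locus of each array lay between 14.01 and 14.62. Of the 252 group means of the 9 genes, 59 were 13 or above, where a fall can be understated. Another 33 lay below 4.03, the 25th percentile over loci of the highest group mean, where a level has no exact size. Levels are compared within a gene and not between genes, since each probe set has its own brightness. Less RNA per cell and fewer cells of a kind cannot be told apart in these dissected samples.

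The dissection was checked on markers. The endosperm gene EPR1 lay between 12.26 and 14.01 in the 44 MCE arrays and between 13.23 and 13.81 in the 7 PE arrays, with 3.15 to 8.14 in RAD and 3.63 to 8.23 in COT. In RAD at 1 h it was 7.40 to 8.14. The 3 measured endosperm markers (EPR1, EXPA2 and MAN7) averaged 7.95 to 13.22 per array in MCE, against 4.50 to 6.18 in RAD. The embryo gene AN3, from the list of cotyledon and shoot markers, lay at 3.78 to 6.71 in MCE and at 7.40 to 11.38 in RAD. The root gene PIN2 lay at 4.14 to 6.44 in MCE and at 5.19 to 10.35 in RAD. The 4 measured cotyledon and shoot markers, AN3 included, averaged 3.55 to 5.71 per array in MCE and 4.53 to 5.67 in RAD. As a list they thus did not separate MCE from RAD. At 31 h their averages were higher in MCE (5.4 to 5.5) than in RAD (4.6 to 4.8). The 4 seed coat markers averaged 3.41 to 3.98 in every array. Whole dry seed, which includes the seed coat, had 3.53 to 3.72, with 3 of the 4 below 4.03. These markers therefore cannot show whether seed coat was admixed. The part of admixed tissue in the values that follow was not tested. For replicate 2 of MCE at 16 h, at 20 h and at 25 h without testa rupture, the source name gives an earlier stage than the title, and the title was followed. Without these 3 arrays, 213 of 216 member values kept their call and 3 gained one. Those were the MCE minus RAD differences of change for CRU2 between 3 and 16 h (1.01) and, between 16 and 31 h, for CRU3 (-1.03) and PAP85 (-1.10).

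Every storage protein gene was abundant at the start and had fallen far by radicle emergence. In dry seed the 9 group means ran from 11.29 (SESA2) to 14.39 (CRA1), and 7 of them were 13 or above. At 38 h with endosperm rupture all 9 were below 4.03 in RAD, where they ran from 2.64 (SESA4) to 4.00 (CRU3). In MCE at that stage 3 were below it (CRU2, SESA4 and SESA5), and the means ran from 3.26 (CRU2) to 6.48 (SESA1). Between 1 h and 38 h with endosperm rupture all 9 genes fell in RAD (median -10.27), against a background of 17.5% of all loci lower. All 9 fell in MCE as well (median -8.08), with 18.1% of all loci lower. The median over all loci was -0.18 in RAD and -0.14 in MCE.

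**Figure D1:**
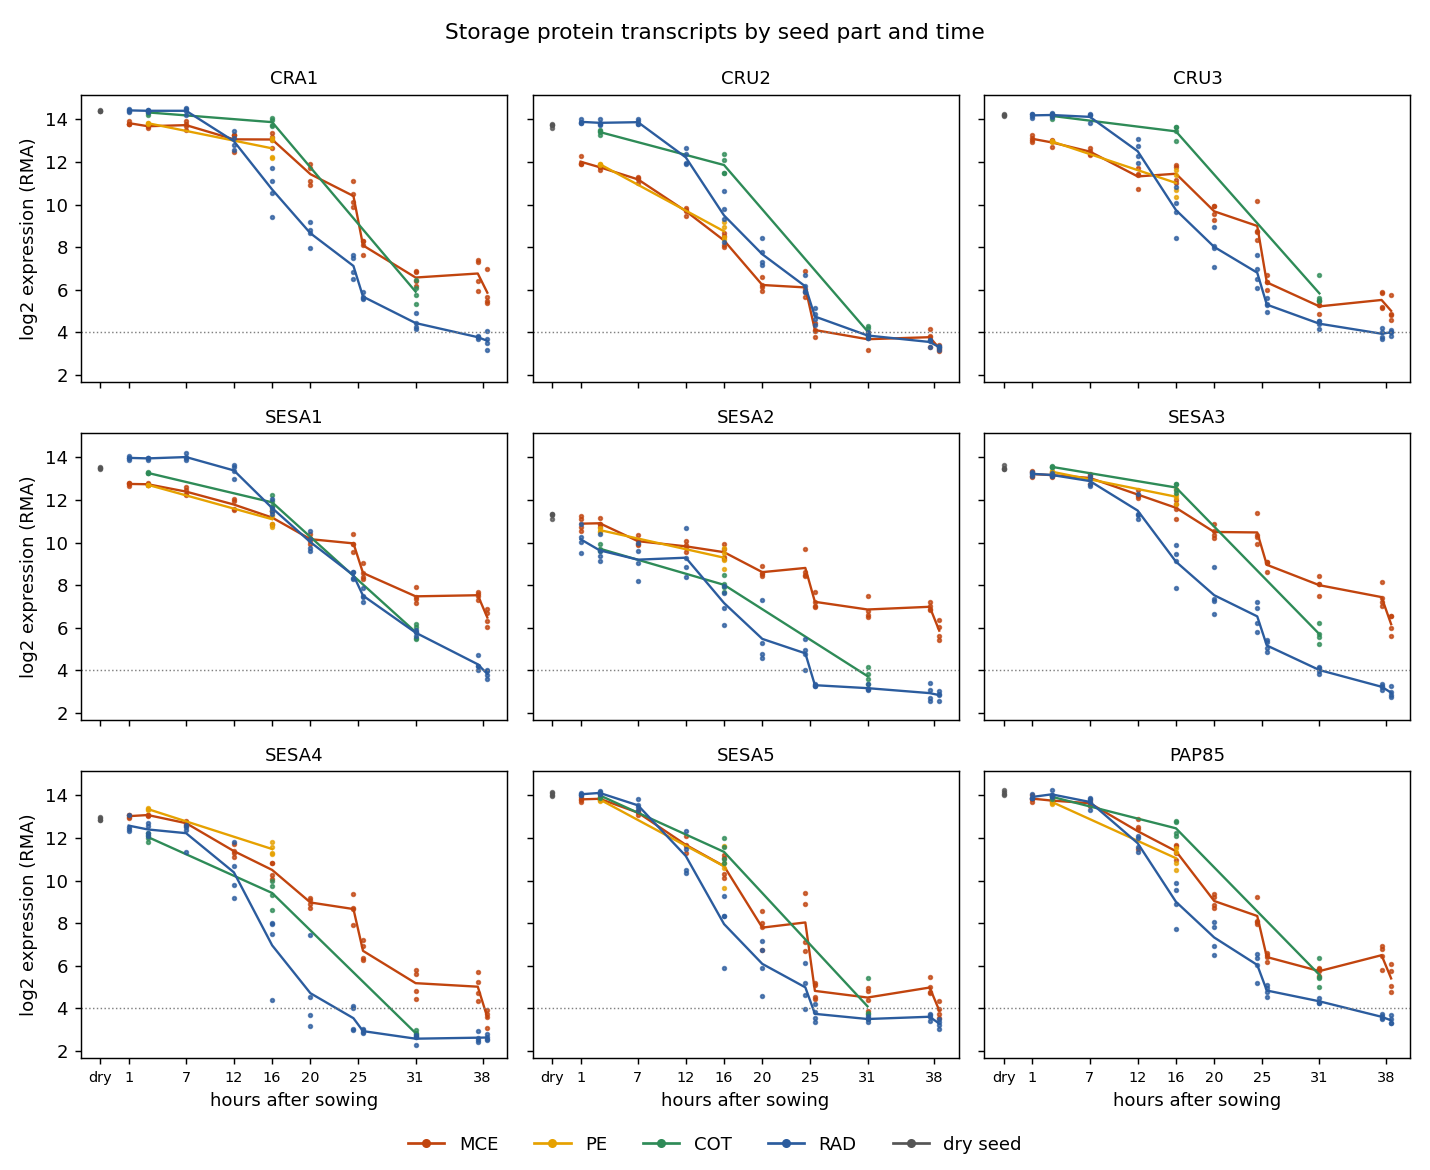
Log2 expression of the 9 genes by hours after sowing in MCE, PE, COT, RAD and dry seed. Points are arrays, lines join group means and the dotted line marks the bound of 4.03. In RAD every gene lies below the bound at 38 h with endosperm rupture.

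The cruciferin CRA1 had RAD means of 14.42, 14.40 and 14.40 at 1, 3 and 7 h, 12.98 at 12 h, 10.71 at 16 h, 8.65 at 20 h and 4.44 at 31 h. In MCE the means at the same times were 13.83, 13.68 and 13.73, then 13.06, 13.06, 11.43 and 6.58. In COT they were 14.33, 13.87 and 5.91 at 3, 16 and 31 h. At 16 h the transcript had thus dropped well below its starting level in RAD, while COT was within 1 log2 unit of its 3 h level.

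The other cruciferins differed from CRA1 in the endosperm. CRU2 means in MCE were 12.01, 11.75, 11.18, 9.69, 8.32 and 6.23 at 1, 3, 7, 12, 16 and 20 h, and in RAD 13.89, 13.84, 13.87, 12.22, 9.49 and 7.67. CRU3 means at these times were 13.09, 12.92, 12.49, 11.32, 11.45 and 9.68 in MCE and 14.19, 14.21, 14.12, 12.51, 9.74 and 8.01 in RAD. Both were lower in MCE than in RAD at the first sampling. In COT at 3, 16 and 31 h the means were 13.41, 11.86 and 4.05 for CRU2 and 14.17, 13.44 and 5.83 for CRU3.

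Among the albumins SESA1 had the smallest difference in RAD between 16 and 3 h, with RAD means of 13.98, 13.96, 14.02, 13.39, 11.62 and 10.02 at 1, 3, 7, 12, 16 and 20 h and 5.77 at 31 h. SESA4 had RAD means of 12.58, 12.41, 12.23, 10.39, 6.96 and 4.72 at those 6 times and 2.58 at 31 h, below the bound. In MCE the SESA4 means were 13.03, 13.08, 12.70, 11.39, 10.50 and 8.98, and 5.19 at 31 h. In RAD at 25 h without testa rupture SESA4 (3.54) was the 1 member below 4.03, and with testa rupture SESA2 (3.31) and SESA5 (3.75) were below it too.

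SESA3 had nearly the same level in both parts at 1 h, 13.22 in MCE and 13.23 in RAD, but 8.0 in MCE and 4.02 in RAD at 31 h. SESA2 stood at 10.89 in MCE and 10.16 in RAD at 1 h, and at 6.86 in MCE and 3.17 in RAD at 31 h. These albumins therefore stayed several log2 units higher in MCE late in germination. SESA5, whose gene is not next to the other albumins, had means of 13.82 in MCE and 14.06 in RAD at 1 h, and 4.51 in MCE and 3.50 in RAD at 31 h. The vicilin-like PAP85 had RAD means of 13.93, 14.05, 13.70, 11.76, 9.01 and 7.33 at 1, 3, 7, 12, 16 and 20 h and 4.34 at 31 h. In MCE they were 13.85, 13.76, 13.64, 12.32, 11.39 and 9.05, and 5.75 at 31 h. In COT they were 13.94, 12.46 and 5.58 at 3, 16 and 31 h.

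Ordered by level over the 28 groups, the 9 genes had different groups at the top. The highest mean was that of dry seed for CRU3 (14.22 ± 0.03, SD, n = 4), SESA2 (11.29 ± 0.11) and PAP85 (14.13 ± 0.11). It was RAD at 1 h for CRA1 (14.42 ± 0.08) and CRU2 (13.89 ± 0.09), RAD at 7 h for SESA1 (14.02 ± 0.13) and RAD at 3 h for SESA5 (14.12 ± 0.06). For SESA3 it was COT at 3 h (13.56 ± 0.02), and for SESA4 PE at 3 h (13.36 ± 0.05, n = 3). At the bottom stood RAD at 38 h with endosperm rupture, except for CRU3 (RAD at 38 h without it, 3.94 ± 0.24), SESA4 (RAD at 31 h, 2.58 ± 0.22) and CRU2 (MCE at 38 h with it, 3.26 ± 0.11). Of the 27 pairs of neighbours in each order, between 13 (SESA3) and 20 (SESA4, SESA5 and PAP85) were no farther apart than the larger SD of the pair.

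By the first hour few of the genes passed the threshold against dry seed. In MCE 8 of the 9 differences were nevertheless below 0, with a median of -0.40 against 0.009 over all loci. MCE at 1 h had 11.89, 11.92, 11.96 and 12.29 of CRU2, against 13.78, 13.72, 13.61 and 13.72 in dry seed, and the groups did not overlap. CRU2 (-1.69 ± 0.23, adjusted p = 3.26e-09 in limma) and CRU3 (-1.13 ± 0.29, adjusted p = 0.00183) were lower in MCE at 1 h than in dry seed, where 1.54% of all loci were lower. In RAD at 1 h 1 of the 9, SESA2, was lower than in dry seed (-1.13 ± 0.34, adjusted p = 0.00689), with 1.67% of all loci. That difference was -0.92 and no longer passed without RAD at 1 h replicate 4. Dry seeds were measured whole, so part and time cannot be told apart in these values. Between MCE and RAD at 1 h CRU2 (-1.87 ± 0.23), SESA1 (-1.22 ± 0.17) and CRU3 (-1.10 ± 0.29) were lower in MCE, with 2.59% of all loci lower.

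Falls past the threshold began after 7 h. Between 3 and 7 h no member passed in MCE (-0.84 to 0.05, 3 with an unadjusted limma p under 0.05, background 6.14% lower). The smallest adjusted p there was 0.0348 in limma, for a difference under 1 in size. None passed in RAD either (-0.58 to 0.06, 0 with an unadjusted limma p under 0.05, background 6.54%). At 12 h, 6 genes in MCE and 7 in RAD first lay at least 1 log2 unit below their 1 h mean. At 16 h 2 more did so in each part (SESA1 and SESA3 in MCE, SESA1 and SESA2 in RAD), and CRA1 in MCE followed at 20 h. Between 7 and 12 h 5 genes fell in MCE and 7 in RAD, where 4.65% and 4.49% of all loci were lower. SESA5 had the largest step of the 9 in both, -1.51 ± 0.42 in MCE and -2.38 ± 0.42 in RAD.

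Between 12 and 16 h CRU2 was the 1 gene that fell in MCE (-1.38, background 1.85% lower), and all 9 fell in RAD, from -1.77 (SESA1) to -3.43 (SESA4), with 1.7% of all loci lower. Between 16 and 20 h 8 genes fell in MCE (background 2.75%), with -2.89 for SESA5 as the largest. In RAD all 9 fell (background 0.361%), although the 20 and 16 h arrays overlapped for 7 of them, all but CRA1 and SESA1. Between 20 h and 25 h without testa rupture 1 gene fell in MCE (CRA1, -1.03, background 0.708%) and 5 in RAD (background 0.0891%). Between 25 h with testa rupture and 31 h 4 fell in MCE (background 1.22%) and 3 in RAD (background 0.488%). Between 31 h and 38 h without endosperm rupture 0 fell in MCE in limma (2 with an unadjusted p under 0.05 in either direction, background 2.14% lower). Only 2 of the 9 differences there were below 0, with a median over all loci of -0.005. The 9 ranged from -0.56 to 0.75, the latter for PAP85 with means of 5.75 and 6.50. The smallest adjusted p was 0.0296 in limma, for a difference under 1 in size. In RAD 1 gene fell, SESA1 (-1.49 ± 0.17, background 3.16%), when the other 8 were near or below the bound. The difference between parts was tested for the wider intervals, not for these steps. Seeds at 25 and 38 h were sorted by rupture, and the titles at 20 and 31 h name no sorting. Time and sorting cannot be told apart in the steps that join such groups.

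The interval between 3 and 16 h was sampled in all 4 parts. CRA1 in RAD had 11.12, 10.53, 11.74 and 9.44 at 16 h, against 14.43, 14.40, 14.36 and 14.42 at 3 h. In MCE CRA1 had 13.01, 12.67, 13.36 and 13.18 at 16 h, against 13.71, 13.70, 13.73 and 13.58 at 3 h. In COT it had 13.99, 13.68, 14.07 and 13.74 at 16 h, against 14.40, 14.21, 14.41 and 14.29 at 3 h. No 16 h group overlapped its 3 h group, but the fall in RAD was several log2 units and the differences in MCE and COT were under 1.

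For PAP85 RAD had 9.54, 8.91, 9.87 and 7.71 at 16 h, against 14.24, 14.02, 13.94 and 14.02 at 3 h. MCE had 11.30, 10.95, 11.69 and 11.60 at 16 h, against 13.84, 13.68, 13.78 and 13.74 at 3 h. PE had 10.52, 10.84, 11.33 and 11.53 at 16 h, against 13.61, 13.67 and 13.83 at 3 h. All 16 h arrays of PAP85 lay below all 3 h arrays of their part, and the 16 h arrays of RAD lay below those of MCE and PE.

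By 16 h all 9 genes had fallen in RAD relative to 3 h, from -2.33 (SESA1) to -6.16 (SESA5), with a median of -4.35 and 13.8% of all loci lower. In MCE 8 of 9 fell (median -1.57, background 13.7%), with CRA1 at -0.62 ± 0.28 as the exception. In PE all 9 fell (median -1.88, background 13.1%). In COT 6 of 9 fell (median -1.48, background 13.1%), and CRA1 (-0.46 ± 0.28), CRU3 (-0.73 ± 0.29) and SESA3 (-0.97 ± 0.27) did not pass. SESA3 passed there in 2 of 8 fits without 1 array. The largest adjusted p among the falls was 2.35e-10 in RAD, 0.000249 in MCE, 0.00123 in PE and 5.3e-06 in COT. As folds, SESA5 was 71.4 times lower at 16 h than at 3 h in RAD and 8.96 times lower in MCE. CRU2 was 20.4 times lower in RAD and 10.8 times lower in MCE.

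The difference between these changes was tested directly. The change in MCE was less negative than that in RAD for 6 genes, against a background of 6.81% of all loci: CRA1 (3.07 ± 0.39), SESA5 (2.99 ± 0.59), CRU3 (2.99 ± 0.41), SESA4 (2.86 ± 0.61), PAP85 (2.67 ± 0.39) and SESA3 (2.54 ± 0.38), with adjusted p of 7.1e-05 or less in limma. CRU2 (0.91 ± 0.33), SESA1 (0.77 ± 0.24) and SESA2 (1.11 ± 0.47, adjusted p = 0.0604) did not pass. The change in COT was less negative than that in RAD for 7 genes (background 6.38%), from 2.80 ± 0.33 for CRU2 to 3.74 ± 0.41 for CRU3. SESA1 (0.95 ± 0.24) and SESA2 (0.77 ± 0.47) did not pass there. The MCE and COT comparisons share the RAD arrays. CRA1 and CRU3 in COT, and CRA1 in MCE, had means of 13 or above at both 3 and 16 h, where a fall can be understated. CRU2 and SESA2 for MCE, and SESA1 for COT, did pass in 3, 4 and 3 of the 16 fits without 1 array.

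Between the endosperm regions no such difference passed. The change in PE minus that in MCE ranged from -0.56 ± 0.41 (CRA1) to 0.70 ± 0.64 (SESA4), with 0 genes called by limma, 0 at an unadjusted p under 0.05 and 1.04% of all loci called in either direction. Differences in level between PE and MCE were -0.32 to 0.28 at 3 h (0 called by limma, 0 at an unadjusted p under 0.05, background 0.305%). At 16 h they were -0.43 to 0.98 (0 called by limma, 1 at an unadjusted p under 0.05, background 1.11%). The widest of these, SESA4 at 16 h, was 0.98 ± 0.43 with an adjusted p of 0.224.

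**Figure D2:**
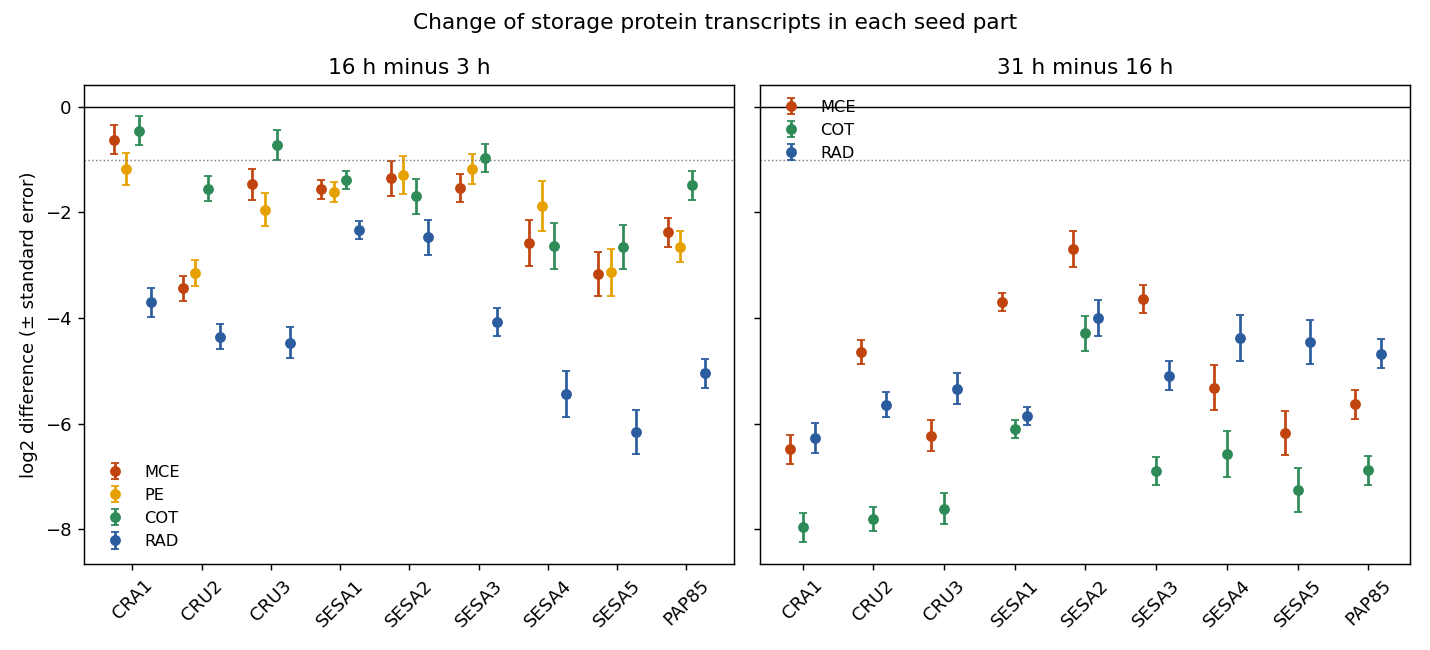
Log2 differences ± standard error of the 9 genes for 16 h minus 3 h (MCE, PE, COT and RAD) and 31 h minus 16 h (MCE, COT and RAD), with a dotted line at -1. In the earlier interval RAD lies lowest for every gene, and in the later one COT does.

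Between 16 and 31 h all 9 genes fell in COT as well. CRA1 in COT had 6.11, 5.35, 6.46 and 5.73 at 31 h, against 13.99, 13.68, 14.07 and 13.74 at 16 h, 249 times lower. CRU2 in COT had 4.22, 3.86, 4.30 and 3.83 at 31 h, against 12.37, 11.50, 12.08 and 11.48 at 16 h, 224 times lower. All 9 genes fell in each part: the median was -6.89 in COT (background 4.23% lower), -5.32 in MCE (background 11.7%) and -5.09 in RAD (background 4.34%). The largest adjusted p was 1.95e-20 in COT, 1.76e-11 in MCE and 3.01e-15 in RAD. By 31 h 5 of the 9 were below the bound in RAD, 2 in COT and 1 in MCE, so the size of these falls is limited by the floor.

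The change in COT was more negative than that in RAD for 7 genes (background 4.33% lower), from -1.69 ± 0.39 for CRA1 to -2.79 ± 0.59 for SESA5, and did not pass for SESA1 (-0.24 ± 0.24) and SESA2 (-0.29 ± 0.47). For SESA4 the value was -2.19 ± 0.61, and it was -1.33 and no longer passed without RAD at 16 h replicate 4. The 7 genes already stood lower in RAD than in COT at 16 h (median COT minus RAD of 3.16 over the 9). In RAD at 31 h CRU2 (3.85), SESA3 (4.02), SESA4 (2.58) and SESA5 (3.50) were below the bound, which limits their falls there. Between MCE and RAD the genes split. SESA1 (2.15 ± 0.24, adjusted p = 9.71e-13 in limma), SESA3 (1.45 ± 0.38) and SESA2 (1.31 ± 0.47, adjusted p = 0.0204) fell less in MCE than in RAD, with a background of 8.88% of all loci. SESA5 (-1.71 ± 0.59, adjusted p = 0.0138) fell more in MCE, with a background of 10.2%. The SESA5 value was -1.03 and did not pass without RAD at 16 h replicate 4. SESA5 started from 7.96 in RAD and 10.68 in MCE at 16 h, and in RAD it reached the floor by 31 h. The SESA2 call was lost without RAD at 16 h replicate 2 (1.04), without RAD at 16 h replicate 3 or without MCE at 31 h replicate 3. CRU2 (1.00 ± 0.33) was not called, but passed in 7 of 16 fits without 1 array. In the other direction PAP85 (-0.96 ± 0.39) passed in 4 and CRU3 (-0.89 ± 0.41) in 2 of these 16 fits.

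Spread was widest in RAD at 16 and 20 h, and the standard errors pool the spread over all groups. SESA4 in RAD had 7.48, 8.02, 7.97 and 4.38 at 16 h and 3.16, 4.53, 3.70 and 7.47 at 20 h, with SDs of 1.74 and 1.92. SESA5 in RAD at 16 h had 8.34, 8.34, 9.26 and 5.91, with an SD of 1.43. Replicate 4 was the lowest of these SESA4 arrays at 16 h and the highest at 20 h. EPR1 in RAD at 16 h was 4.40 in replicate 4 and 4.32 to 5.27 in the others, and PIN2 was 10.06 in replicate 4 and 9.60 to 9.92 in the others. At 20 h EPR1 was 4.67 in replicate 4 and 4.19 to 5.04 in the others. Whether these arrays came from seeds at another stage was not tested.

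Expressed as a rate, the loss between 12 and 31 h was steeper in the radicle for most genes. The slope of the group means on hours for CRA1 was -0.36 ± 0.01 log2 units per hour in MCE and -0.46 ± 0.01 in RAD. Taken as straight lines, these slopes correspond to a halving every 2.77 h in MCE and every 2.19 h in RAD. Over the 9 genes halving took 2.54 (SESA5) to 6.33 h (SESA2) in MCE and 2.19 (CRA1) to 3.07 h (SESA2) in RAD. All 9 slopes passed in both parts, with 13.6% of all loci called lower in MCE and 7.77% in RAD. The courses were not all straight: CRA1 in MCE had 13.06 at both 12 and 16 h, and 6.58 at 31 h. The standard errors reflect spread within groups and not departure from a line. Between 16 and 31 h alone, the change was called less negative in MCE than in RAD for 3 genes and more negative for 1.

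The slope in MCE was less negative than that in RAD for 7 genes, with 11.4% of all loci called in this direction. The differences were 0.18 ± 0.01 for SESA1, 0.17 ± 0.02 for SESA2 and 0.17 ± 0.02 for SESA3, all tandem albumins. They were followed by CRU2 (0.12 ± 0.02), CRA1 (0.09 ± 0.02), SESA4 (0.09 ± 0.03) and CRU3 (0.08 ± 0.02), with adjusted p of 0.00673 or less in limma. SESA5 (0.01 ± 0.03, adjusted p = 0.884) and PAP85 (0.03 ± 0.02, adjusted p = 0.261) did not pass. SESA2, SESA4 and SESA5 were below the bound in RAD by 25 h with testa rupture, which can flatten a slope. CRU2 entered this span at 9.69 in MCE and 12.22 in RAD, and at 31 h it was below the bound in both (3.68 and 3.85). It thus started nearer the floor in MCE, and its flatter slope there cannot be read as a slower loss.

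**Figure D3:**
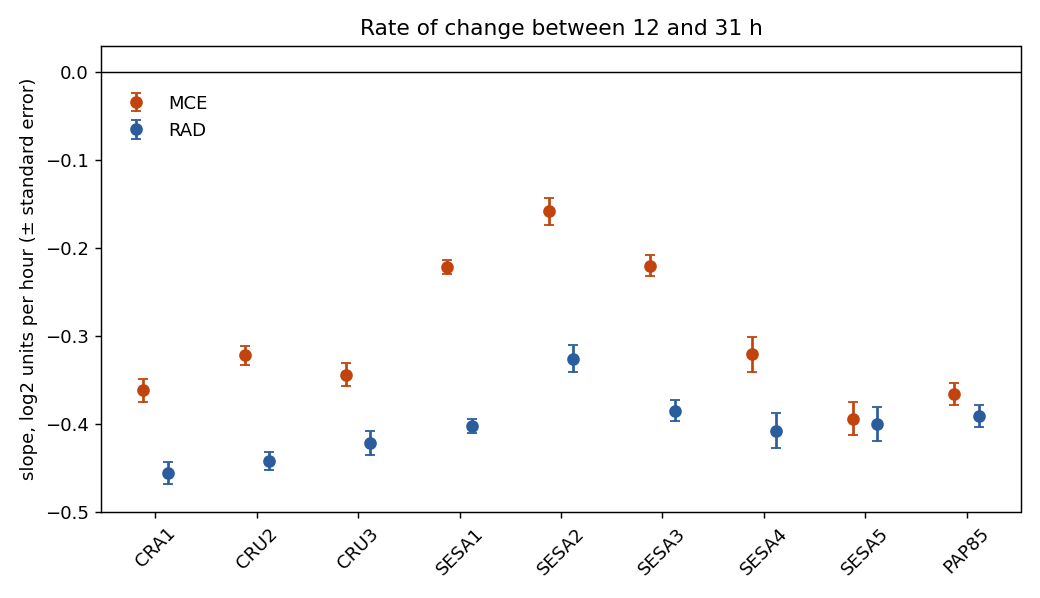
Slopes of the 9 genes between 12 and 31 h in MCE and RAD, in log2 units per hour with standard errors. MCE slopes run from -0.16 to -0.39 and RAD slopes from -0.33 to -0.46, and the pairs lie closest for SESA5 and PAP85.

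As a share of the whole change between 1 h and 38 h with endosperm rupture, the genes had covered 9.7% (CRA1) to 42.2% (CRU2) in MCE by 16 h. In RAD the shares at 16 h ran from 23.2% (SESA1) to 56.6% (SESA5). At 20 h CRA1, CRU2 and CRU3 had covered 30.1%, 66.1% and 42.1% in MCE, and 53.3%, 58.8% and 60.6% in RAD. At 20 h the shares of the 3 cruciferins thus lay farther apart in MCE than in RAD, which was not tested. The CRA1 means in MCE were 13 or above through 16 h, where a fall can be understated.

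In level, MCE moved above RAD for most genes. At 12 h CRU2 (-2.52), SESA1 (-1.60) and CRU3 (-1.18) were lower in MCE (background 5.65%) and none was higher. At 16 h 7 genes were higher in MCE than in RAD (background 7.62%), from 1.71 ± 0.29 for CRU3 to 3.54 ± 0.43 for SESA4. CRU2 was lower there (-1.18 ± 0.23) and SESA1 did not pass (-0.45 ± 0.17). SESA3 at 16 h had 11.58, 11.13, 12.02 and 11.81 in MCE, against 9.48, 9.16, 9.90 and 7.88 in RAD, with no overlap. At 25 h without testa rupture 8 genes were higher in MCE (background 11%), with SESA4 (5.13 ± 0.43), SESA2 (4.01 ± 0.34) and SESA3 (3.94 ± 0.27) farthest apart, and CRU2 at -0.05 ± 0.23. At 38 h with endosperm rupture 6 were higher (background 14.1%), led by SESA3 (3.21 ± 0.27), SESA2 (3.03 ± 0.34) and SESA1 (2.65 ± 0.17). All 9 RAD means were below the bound there, so the sizes are not exact.

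Over the whole course, the fall between 1 h and 38 h with endosperm rupture was smaller in MCE than in RAD for 7 genes (background 14.1% of all loci). SESA1 had the widest difference (3.87 ± 0.24), with -6.27 in MCE and -10.15 in RAD. SESA4 (0.50 ± 0.61) and SESA5 (0.86 ± 0.59) did not pass. At 38 h with endosperm rupture all 9 means in RAD and 3 in MCE were below the bound, so these differences have no exact size. CRU2, SESA1 and CRU3 were already lower in MCE than in RAD at 1 h. CRU2 ended at 3.26 in MCE and 3.31 in RAD, both below the bound. Its difference in change (1.82) thus reflects the gap at 1 h (-1.87 for MCE minus RAD).

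**Figure D4:**
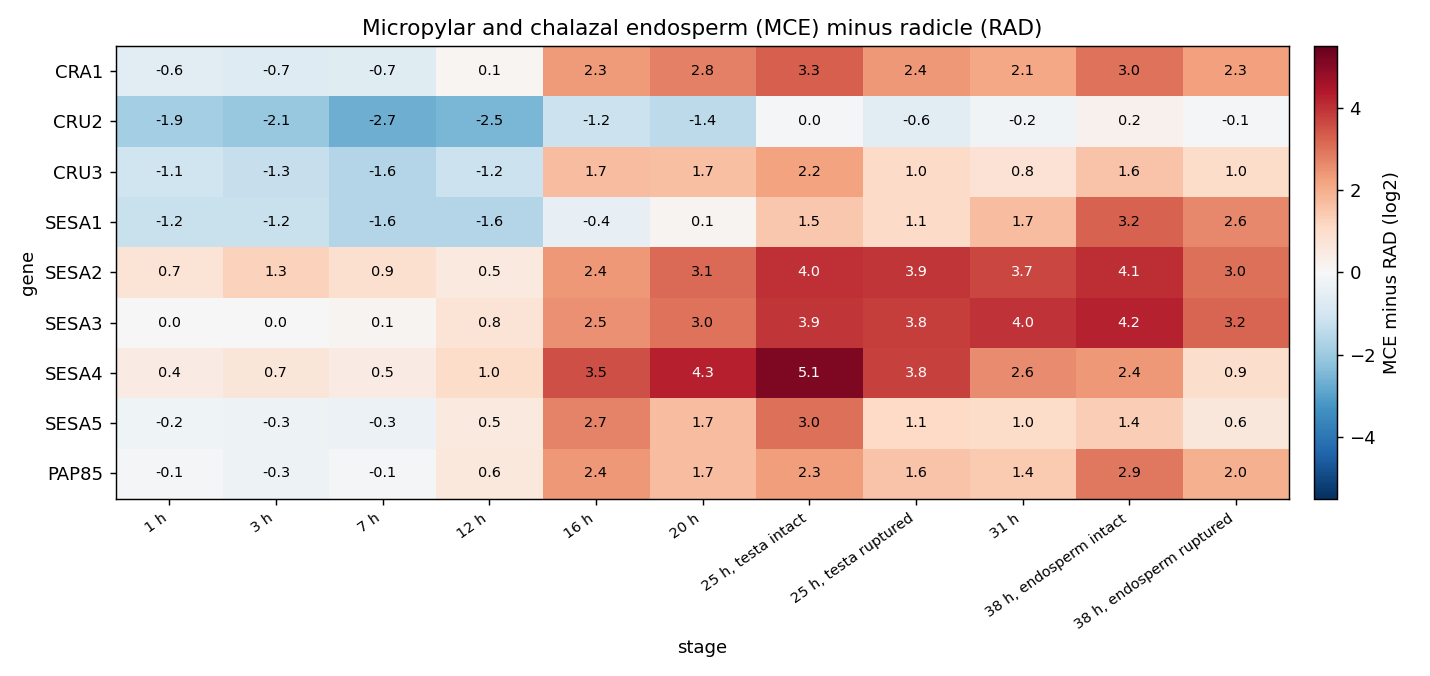
Difference in level between MCE and RAD, in log2 units, for the 9 genes at the 11 stages sampled in both parts. At 16 h 7 genes are more than 1 unit higher in MCE, while CRU2 ranges over the stages from -2.69 at 7 h to 0.23 at 38 h without endosperm rupture.

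The cotyledons could be set against the radicle at 3 times. At 3 h 0 genes passed in limma with the minimum of 1 (-0.68 to 0.38, 1 with an unadjusted p under 0.05, background 4.71% in either direction). That gene, SESA1 (-0.68), had an adjusted p of 0.001 in limma and missed only the minimum size. At 16 h 7 genes were higher in COT (background 6.12%), led by CRU3 (3.70 ± 0.29), SESA3 (3.48 ± 0.27) and PAP85 (3.45 ± 0.27). CRU3 at 16 h had 13.65, 12.98, 13.65 and 13.47 in COT, against 10.08, 9.66, 10.81 and 8.42 in RAD, with no overlap. SESA1 (0.27 ± 0.17) and SESA2 (0.85 ± 0.34) did not pass. At 31 h 4 genes were higher in COT (background 8.3%): SESA3 (1.68 ± 0.27), CRA1 (1.47 ± 0.28), CRU3 (1.43 ± 0.29) and PAP85 (1.24 ± 0.27).

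In MCE, seeds of the same age that had or had not split their testa differed in all 9 genes. CRU3 in MCE had 6.69, 6.01, 6.36 and 6.34 with testa rupture, against 8.35, 8.78, 8.71 and 10.15 without it. CRA1 in MCE had 8.30, 7.64, 8.11 and 8.29 with rupture, against 10.13, 9.88, 10.47 and 11.13 without it. SESA5 in MCE had 4.44, 4.54, 5.12 and 5.19 with rupture, against 7.13, 8.90, 6.70 and 9.43 without it. The groups did not overlap in these 3 genes. All 9 were lower in MCE of ruptured seeds, where 0.54% of all loci were lower, from -1.39 (SESA1) to -3.21 (SESA5), with adjusted p of 0.000274 or less in limma.

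In RAD 7 of the 9 were lower with testa rupture (background 0.577%). CRA1 in RAD had 5.60, 5.65, 5.58 and 5.88 with rupture, against 7.51, 7.63, 6.82 and 6.51 without it, a difference of -1.44 ± 0.28. SESA2 in RAD had 3.26, 3.32, 3.26 and 3.38 with rupture, against 5.48, 4.77, 4.95 and 4.01 without it. All ruptured SESA2 arrays were below the bound. SESA5 (-1.24 ± 0.42, adjusted p = 0.0398 in limma) lost its call in 5 of 8 fits that left out 1 array, with values of -1.58 to -0.85. SESA1 (-0.96 ± 0.17) and SESA4 (-0.61 ± 0.43, with both means below the bound) did not pass. SESA1 passed in 3 of 8 fits without 1 array, with values of -1.08 to -0.86 over the 8. Whether the effect differed between MCE and RAD was not tested.

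At endosperm rupture fewer genes passed. In MCE 5 of 9 were lower with rupture (background 0.328% of all loci): SESA4 (-1.44 ± 0.43), SESA3 (-1.27 ± 0.27), SESA2 (-1.12 ± 0.34), PAP85 (-1.09 ± 0.27) and SESA1 (-1.05 ± 0.17), with adjusted p of 0.0222 or less in limma. SESA3 in MCE had 5.98, 6.54, 5.62 and 6.53 with rupture, against 8.16, 7.19, 7.03 and 7.39 without it, and the groups did not overlap. The other 4 ranged from -1.08 ± 0.42 (SESA5, adjusted p = 0.107) to -0.51 ± 0.29 (CRU3), and of these CRA1 (-0.90 ± 0.28) passed in 3 of 8 fits without 1 array. Of the 5 genes SESA3 alone kept its call in each of the 8 fits that left out 1 of these arrays. The count of 5 was 1 without replicate 1 of either group, 2 without replicate 3 of the seeds with rupture and 3 without replicate 3 of those without it. In RAD 0 of 9 passed in limma (1 at an unadjusted p under 0.05, SESA1 at -0.45 ± 0.17, adjusted p = 0.0829, background 0.136%). There 9 genes were below the bound with rupture and 8 without it.

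**Figure D5:**
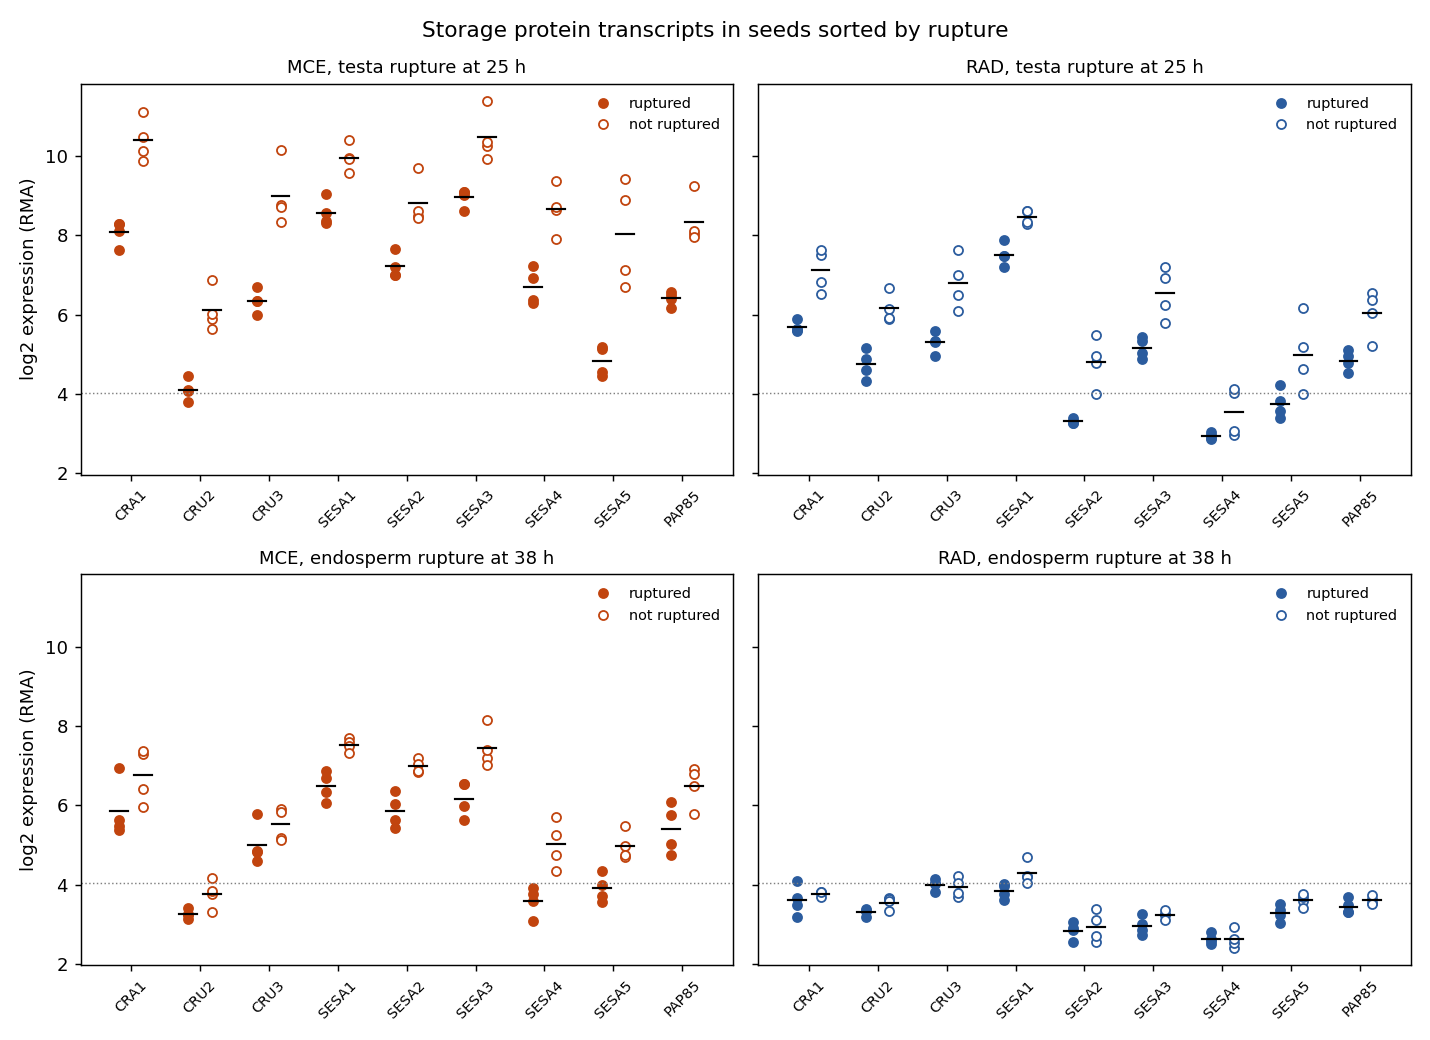
Log2 expression of the 9 genes in MCE and RAD of seeds sorted by testa rupture at 25 h and by endosperm rupture at 38 h. Filled points are arrays of ruptured seeds and open points those of seeds without rupture, with bars at the means. At testa rupture in MCE the mean of every gene is lower in ruptured seeds, with differences of -1.39 to -3.21.

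The 9 profiles were alike but not equal. Over the 28 group means, which come from the same arrays and 1 normalization, Pearson correlations between members ranged from 0.807 (CRU2 with SESA2) to 0.994 (SESA5 with PAP85). Outside the members, the locus most like their averaged profile was OLEO1 (AT4G25140, r = 0.991), an oleosin that coats oil bodies. It was followed by M10 (AT2G41280, r = 0.987), AT2G05580 (r = 0.986), the oleosin OLEO2 (AT5G40420, r = 0.986), AT2G15010 (r = 0.981), the dehydrin RAB18 (AT5G66400, r = 0.979), the seed vacuole aquaporin TIP3;1 (AT1G73190, r = 0.978), AT1G54870 (r = 0.978), GASA3 (AT4G09600, r = 0.978) and OLEO4 (AT3G27660, r = 0.977). OLEO1 averaged 12.32 in MCE, 12.37 in COT and 9.78 in RAD at 16 h.

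The nearest locus differed among members. OLEO1 was nearest to CRA1 (r = 0.991) and CRU3 (r = 0.983), OLEO4 to SESA5 (r = 0.996) and OLEO2 to PAP85 (r = 0.990). The tandem albumins had other neighbours: AT2G15010 for SESA1 (r = 0.984), AT1G48750 for SESA2 (r = 0.980) and SESA4 (r = 0.987), and FDH, formate dehydrogenase, for SESA3 (r = 0.985). CRU2 was nearest to SPY (AT3G11540, r = 0.978), known as a repressor of gibberellin signalling.

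Of 6 further cupin globulin relatives, 4 fell between 3 and 16 h in each of MCE, PE, COT and RAD, where 13.7%, 13.1%, 13.1% and 13.8% of all loci fell. AT1G03890, the gene next to CRU2, stood at 4.95 at 16 h and 8.95 at 1 h in MCE, and at 3.97 at 16 h and 10.95 at 1 h in RAD. AT2G28490 averaged 10.21 at 16 h and 12.85 at 3 h in MCE, and 6.60 at 16 h and 13.02 at 3 h in RAD. All 7 oleosins and caleosins, which stabilise oil bodies, fell between 1 h and 38 h with endosperm rupture in MCE (median -8.76, background 18.1%) and in RAD (median -9.45, background 17.5%).

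Genes that act on the stored proteins were counted in the same way. Of 10 measured genes of sorting and processing, 3 fell and 3 rose in MCE between 1 h and 38 h with endosperm rupture, where 18.1% of all loci fell and 18.8% rose, so these counts are not far from the background. In RAD 5 fell and 0 rose in limma, where 17.5% of all loci fell and 21.8% rose. BETA-VPE, a vacuolar processing enzyme of seeds, fell in both (-4.09 ± 0.15 in MCE, -6.63 ± 0.15 in RAD). DELTA-VPE stood at 10.01 at 38 h with endosperm rupture and 3.37 at 1 h in MCE, and at 3.19 and 3.23 at these stages in RAD. The sorting receptor VSR1 fell by 1.5 in MCE and 1.63 in RAD.

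Of 10 papain-type cysteine proteases, which degrade protein, 6 rose in each part over that time, with a median of 3.40 in MCE and 4.08 in RAD, and 1 (CATHB2, -1.01 ± 0.10) fell in RAD. Of all loci 18.8% rose in MCE and 21.8% in RAD, and 17.5% fell in RAD. CP1 averaged 11.62 in MCE and 10.70 in RAD at 7 h, when no member had passed the threshold relative to 3 h, and 4.52 in MCE and 5.19 in RAD at 1 h. RD21A rose (9.92 ± 0.20 in MCE, 7.22 ± 0.20 in RAD), as did RD19A (7.23 ± 0.17 in MCE, 4.67 ± 0.17 in RAD).

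Of 11 activators of storage protein genes, 5 fell and 1 rose in each of MCE and RAD between 1 h and 38 h with endosperm rupture. Of all loci 18.1% fell and 18.8% rose in MCE, and 17.5% fell and 21.8% rose in RAD. ABI5, a bZIP factor of abscisic acid signalling, fell in both (-5.70 ± 0.15 in MCE, -5.14 ± 0.15 in RAD), and its means in MCE at 1, 3, 7 and 12 h were 10.95, 10.60, 8.42 and 7.97. FUS3 averaged 4.67 in MCE and 3.58 in RAD at 38 h with endosperm rupture, and 8.82 in MCE and 4.96 in RAD at 1 h. ABI3 fell in both (-2.66 ± 0.15 in MCE, -3.10 ± 0.15 in RAD), and BZIP53 rose in both (1.93 ± 0.13 in MCE, 1.45 ± 0.13 in RAD). Of 5 repressors of the maturation programme, VAL1 fell in both parts (-1.39 ± 0.17 in MCE, -1.12 ± 0.17 in RAD), VAL3 fell in RAD (-1.13 ± 0.14) and VAL2 rose in MCE (1.07 ± 0.15). PKL and ASIL1 did not pass in either part.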

How the data were processed

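RNA of dissected seed parts was measured on 111 arrays, placed in 28 groups by sample title. The authors deposited 1 table of log2 expression values. It was made with RMA in affy, per the submitters' processing notes, which give no versions. Probe definition, genome build and filters are not given in the sources used here. No sequence table was used here. The reference table named 21205 of 21313 loci.

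The deposited values were fitted in R 4.3.3. The tool was limma 3.58.1, with a mean for each group, 83 residual degrees of freedom, a prior worth 8.02 and a median moderated SD of 0.193. Tests were two-sided, with Benjamini-Hochberg adjustment over all loci within each of 56 comparisons. A gene was called at an adjusted p under 0.05 and a log2 difference of at least 1 (for slopes, over 19 h). Nothing says whether replicates came from separate seed batches, so p-values reflect only the spread among these arrays, whose number limits the precision. Another stage than the title was given by the source name of 3 arrays, and 6 were marked as redone. All were kept.

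Members, lists and tests were chosen with earlier results of these data known. The text names all 9 members, up to 3 most changed called genes per direction and comparison of each other list, the 10 loci closest to the averaged member profile and the 1 closest to each member. AT1G03890 (as the neighbour of CRU2) and the single early levels of list genes were chosen after values were seen. Markers of seed coat, endosperm, root, and cotyledon and shoot were read for admixture. In simulated data for the MCE minus RAD change between 3 and 16 h over 21313 loci, the fit recovered 97% of genes shifted by 1.5 and 99% of those shifted by 3, with 1 false call. The simulation had 200 changed loci, independent normal noise and no floor or ceiling. Its rates therefore do not describe genes near either limit. Alternatives covered normalization, dim loci, the prior, weights for arrays, replicate number as block, call rule, groups fitted and arrays left out.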

Additional observations from a re-analysis of the deposited data

Results flagged for a closer look

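Single arrays stood apart in 13 of 243 sets of 4 arrays of 1 gene and group, where the highest or lowest value lay far from the others by Dixon's criterion. Chance gives about 1 in 20. In MCE at 1 h replicate 4 was high for CRA1 (13.93, next 13.80) and CRU2 (12.29, next 11.96). Replicate 2 was low for CRA1 in MCE at 12 h (12.46, next 13.25), high for CRA1 in MCE at 38 h with endosperm rupture (6.95, next 5.64) and low for SESA3 in MCE at 25 h with testa rupture (8.61, next 9.03). In MCE at 25 h without testa rupture replicate 4 was high for SESA2 (9.70, next 8.62) and PAP85 (9.25, next 8.11). In COT at 31 h replicate 3 was high for CRU3 (6.71, next 5.60) and SESA5 (5.41, next 3.77). In RAD the arrays were replicate 4 at 16 h for SESA4 (4.38, next 7.48), replicate 3 at 7 h for CRU3 (13.85, next 14.19), replicate 3 at 38 h without endosperm rupture for CRA1 (3.68, next 3.80) and replicate 1 at 1 h for PAP85 (14.08, next 13.90).

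Changes differed between seed parts in 38 of 63 tests of the difference itself. From 3 to 16 h 13.8% (MCE minus RAD), 11.5% (COT minus RAD) and 1.04% (PE minus MCE) of all loci were called in either direction. From 16 to 31 h these shares were 19.1% (MCE minus RAD) and 8.86% (COT minus RAD). For MCE minus RAD they were 30.9% from 1 to 38 h and 23.5% for the slopes. The comparisons share arrays, so the tests are not independent of one another. For MCE minus RAD from 3 to 16 h the log2 values were 3.07 for CRA1, 2.99 for CRU3, 2.54 for SESA3, 2.86 for SESA4, 2.99 for SESA5 and 2.67 for PAP85. For COT minus RAD over the same time they were 3.24 for CRA1, 2.80 for CRU2, 3.74 for CRU3, 3.10 for SESA3, 2.81 for SESA4, 3.50 for SESA5 and 3.56 for PAP85. For MCE minus RAD from 16 to 31 h they were 2.15 for SESA1, 1.31 for SESA2, 1.45 for SESA3 and -1.71 for SESA5. For COT minus RAD from 16 to 31 h they were -1.69 for CRA1, -2.17 for CRU2, -2.27 for CRU3, -1.80 for SESA3, -2.19 for SESA4, -2.79 for SESA5 and -2.20 for PAP85. These signs are opposite to those from 3 to 16 h, and both intervals share the 16 h arrays. At 31 h 5 of the 9 genes were below the bound in RAD, which limits the falls there.

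For MCE minus RAD from 1 h to 38 h with endosperm rupture the values were 2.86 for CRA1, 1.82 for CRU2, 2.11 for CRU3, 3.87 for SESA1, 2.29 for SESA2, 3.22 for SESA3 and 2.05 for PAP85. For the slopes in log2 units per hour, MCE minus RAD was 0.09 for CRA1, 0.12 for CRU2, 0.08 for CRU3, 0.18 for SESA1, 0.17 for SESA2, 0.17 for SESA3 and 0.09 for SESA4.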

How the results depend on the processing

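Of 2160 values of the 9 genes under 10 other settings, 2129 kept their call, 7 lost it, 24 gained it and 0 changed direction with a call. Leaving out arrays kept 2700 of 2790, with 45 lost and 45 gained. Of 300 counts of called genes under the other settings, 299 stayed within 1.5 times: the count for RAD at 1 h minus dry seed (1) was 0 with array weights, and 0 to 1 when replicates were left out (0 without replicate 2, replicate 4 or RAD at 1 h replicate 4). The count of genes lower with endosperm rupture in MCE (5) was 0 to 7 when replicates were left out, with 0 without replicate 1 and 1 without replicate 3 of every group. The causes were not tested. The fits without single arrays at 25 and 38 h were added after the data were seen. Over all loci, same-numbered arrays of different groups deviated together only weakly (median r = 0.049 over 144 pairs, -0.163 to 0.336, 43 over 0.1), so the numbers were not taken as pairs. This was not computed for the 9 genes alone. At 16 h replicate 3 was the highest array of CRA1 and PAP85 in MCE, RAD and COT, but not in PE. With the replicate number as a block, 216 of 216 values kept their call. The added shift of each array moved the median of all loci most for COT at 16 h minus 3 h, to -0.32 with it, against -0.12 without it. The steps between neighbouring stages and the levels between parts were not refitted without single arrays. Signal near the floor and the ceiling limits the sizes of the falls.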
